A study of Mus musculus with 514 samples.

Results

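The transcripts described here are maternal messages that metaphase II (MII) mouse oocytes hold at high level and that late 2-cell embryos have largely lost. They were chosen from their own levels in 2 groups of single-cell or single-embryo RNA-seq libraries, as the mean of log2(TPM + 1), where TPM is transcripts per 1000000. A member had a mean of at least 6 in Nrpp oocytes and was at least 5 log2 units, or 32-fold, lower in z_NrHet late 2-cell embryos. The Nlrp, Zp, Khdc3, Btg4 and Ccdc117 genes were left out by name, which removed 4 genes that met both thresholds. The rule allowed 250 members and found fewer, 89 with ordinary gene names and 18 predicted genes, clone names or pseudogenes, of 55168 named genes and of 2692 genes at the oocyte minimum. All of them were kept, and the 18 were counted but as a rule not named.

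The study removed the nuclear receptors Nr5a2 and Esrrb from mouse oocytes and embryos and asked what each contributes to embryonic genome activation and early development. Full-length RNA-seq values from 263 single oocytes and embryos were used, and 110 libraries of reads tagged with a unique molecular identifier (UMI), from the same embryos, served as a second readout at the late 2-cell, 4-cell and 8-cell stages. Oocytes were labelled Nrpp (9 oocytes, only wild-type or floxed Nr5a2 alleles), NrHet (18, heterozygous for the Nr5a2 deletion) or NrKO (12, Nr5a2 knockout). Early 2-cell (E2C) embryos were mz_Nrpp (21), mz_NrHet (29), mz_NrKO (22, maternal and zygotic knockout), m_NrKO (18, maternal knockout only) and z_NrKO (12, zygotic knockout only). Late 2-cell (L2C) embryos were mz_DHet (7, heterozygous for both genes), mz_NrKO (10), mz_EKO (10, Esrrb knockout), mz_DKO (6, knockout of both), z_NrHet (7) and z_NrKO (6). The 4-cell groups were mz_DHet (6), mz_NrKO (5), mz_EKO (4) and mz_DKO (10), and the 8-cell groups were mz_DHet (21), mz_NrKO (10), mz_EKO (10) and mz_DKO (10). The labels name no strain, mother, litter or Cre driver, so embryos of 1 mother may stand among the replicates and p-values measure only the spread between these embryos. The heterozygous controls carry the deletion on 1 allele.

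An oocyte that has finished growing stops transcription and lives on stored messenger RNA. Meiotic maturation, fertilization and activation of the embryonic genome each bring a wave of clearance, in which the CCR4-NOT complex shortens poly(A) tails and the decapping enzymes and exonucleases remove the body. Some stored messages are instead lengthened at their tails and translated at these steps, through U-rich cytoplasmic polyadenylation elements near the 3' end. The libraries were primed on poly(A), so a level here is that of polyadenylated RNA, and loss of the RNA and shortening of its tail cannot be told apart. TPM is a share of each library's transcripts, and the amount of RNA per embryo was not measured.

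Few facts of the whole series touch the results. TPM values keep no sequencing depth, so the depth is unknown. The gene-level Nr5a2 value overlapped between knockout and control groups at E2C, with medians of 79.6 TPM in mz_NrKO and 84.4 TPM in mz_NrHet, so it does not check the labels. The library labelled E2C mz_NrKO replicate 1 stood apart, with 1253 TPM of Esrrb against at most 31.7 TPM in the other 21 libraries of its group, and with the members at 0.629% of its TPM. E2C results are therefore given with and without it. Over all groups the marker sums of blood reached 288 TPM (L2C mz_DKO), of sperm 16.5 TPM (E2C mz_NrHet) and of oviduct epithelium 215 TPM (Nrpp oocytes), with group medians of at most 16.8, 1.84 and 11.3 TPM. At the 8-cell stage blood reached 75.8 TPM in mz_NrKO and at most 6.68 TPM in mz_DHet.

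By the rule, the members were abundant in oocytes and scarce at L2C. The median fall from Nrpp oocytes to z_NrHet L2C was 5.615 log2 units, between 5.012 and 7.112. Just inside the threshold lay Hif1a (5.03), Ttc39c (5.02) and Obox5 (5.01), and just outside it Csf1 (4.99), Slc31a2 (4.97) and Edrf1 (4.97), so the edge separates genes that hardly differ. In libraries that the rule did not use, all but 4 members were at least 4 log2 units lower in mz_DHet L2C embryos than in NrHet oocytes, and 65 were at least 5 lower. Together the members held 5.74% ± 0.289 of TPM in NrHet oocytes (SD, n = 18) and 2.62% ± 0.218 in mz_NrHet E2C embryos (n = 29). They held 0.144% ± 0.0343 in mz_DHet L2C embryos (n = 7), 0.0851% ± 0.0294 at the 4-cell stage (n = 6) and 0.0382% ± 0.0105 at the 8-cell stage (n = 21).

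The 8 named members with the highest mean in Nrpp oocytes were, in order, Bpgm, Gdf9, Dcp1a, Tubb3, Zar1, Dclk2, Rraga and Obox2. Bpgm, bisphosphoglycerate mutase, had 3296 to 6495 TPM around 5578 TPM in the 9 Nrpp oocytes and 3471 to 6275 TPM around 5500 TPM in the 18 NrHet oocytes, where each such triple gives the lowest, highest and median library. Gdf9, a growth factor that the oocyte sends to its follicle, had 3399 to 5712 TPM around 4488 TPM in NrHet oocytes. Dcp1a, a cofactor of the decapping enzyme, had 2186 to 3744 TPM around 2590 TPM. Tubb3, a beta tubulin, Dclk2, a doublecortin-like kinase, and Rraga, a GTPase of mTORC1 signalling, were all of the slow kind described next, with medians of 2250, 1537 and 1479 TPM in NrHet oocytes.

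The members left at different times. By the difference between Nrpp oocytes and mz_Nrpp E2C embryos they were sorted into an early class of 36 (at least 2 log2 units lower at E2C), a middle class of 17 (1 to 2 lower) and a late class of 54 (less than 1 lower, or higher). The same limits applied to NrHet oocytes and mz_NrHet E2C embryos put 92 members in the same class. The median member had covered 19.8% of its log2 fall to L2C by E2C in the NrHet and mz_DHet series. Prr7, Mos, Furin and Unc5a had the largest falls to E2C among named members in the NrHet series, of 5.58, 4.98, 4.68 and 4.48 log2 units.

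**Figure D1:**
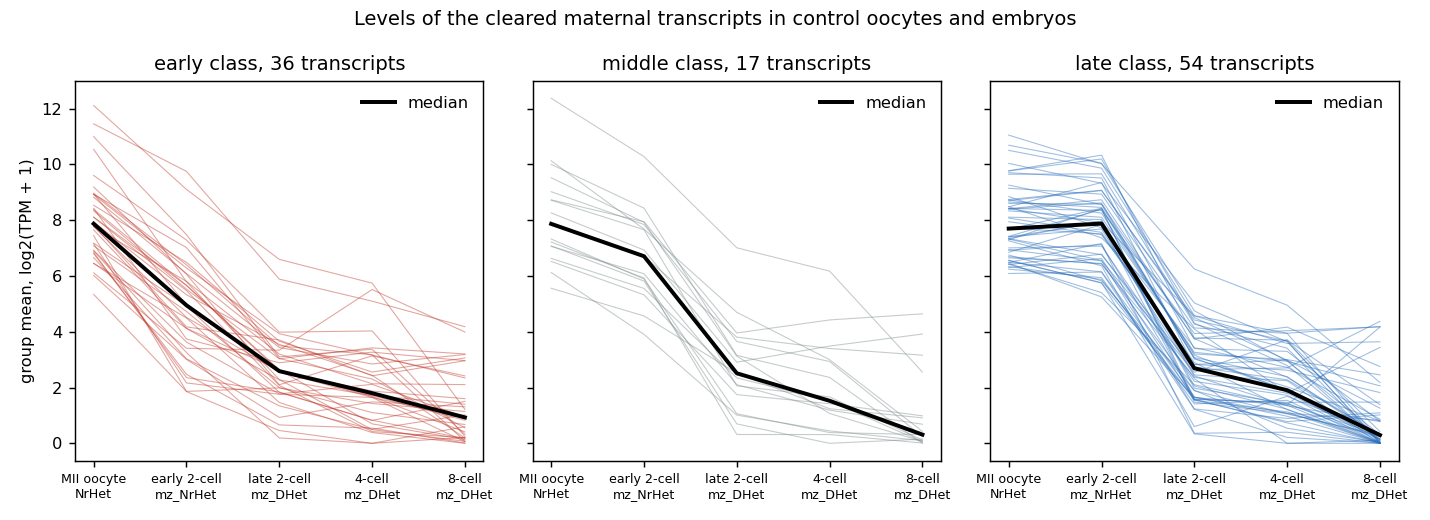
Group means of log2(TPM + 1) for each member in the control series, from NrHet oocytes through mz_NrHet E2C to mz_DHet L2C, 4-cell and 8-cell embryos, in 1 panel for each clearance class, with thin lines for transcripts and a black line for the class median. The early class median goes from 7.87 in oocytes to 4.95 at E2C and the late class median from 7.70 to 7.88, and at L2C they are 2.59 and 2.69.

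The change to E2C was tested in the NrHet series, whose libraries did not define the classes. With limma on log2(TPM + 1) and Benjamini-Hochberg adjustment over 21033 genes, 71 of the members were lower at E2C, against 12.6% of all genes tested, and 9 were higher, against 38.3% (50.8% in either direction). All 36 early and all 17 middle members were lower, which largely follows from how these classes were set in Nrpp. Of the 54 late members 18 were lower and 9 higher. The 9 were Crabp2, Dnajb4, Oog4, Rfpl4, Zfp735, Zfp750, the pseudogene Zfp813-ps and the predicted genes Gm33962 and Gm47182. Crabp2, a carrier of retinoic acid, had 87.8 to 275 TPM around 144 TPM in NrHet oocytes and 172 to 766 TPM around 306 TPM in mz_NrHet E2C embryos, with overlap between the groups (log2 difference 1.12, SE 0.239, adjusted p = 1.56e-05, limma). Rfpl4, a RING finger protein of oocytes, had 697 to 1035 TPM around 878 TPM and then 786 to 3250 TPM around 1087 TPM, also with overlap (log2 difference 0.56, SE 0.179, adjusted p = 0.00487, limma). The number called higher was 3 after median-of-ratios scaling and 3 with a pseudocount of 0.1, where 32.2% and 37.4% of all genes were. In the Nrpp series the median gene at the oocyte minimum was lower at E2C by 0.234 log2 units as deposited. After that scaling it was lower by 0.599.

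Between E2C and L2C nearly all members fell. The rule chose them as low in another L2C group, and their median was still 97.6 TPM in mz_NrHet at E2C. This fall therefore largely follows from the choice, and its excess over all genes is no separate result. In mz_DHet L2C against mz_NrHet E2C embryos all but 6 members were lower, against 33.8% of all genes, and 0 higher, against 31.7% (65.6% were called in either direction). The 6 that did not pass were Mos, Prr7, Unc5a, Fbxo21, Gm47308 and Mir762, named here after their values were seen. Mos, which was near its floor at E2C, had 39.0 to 338 TPM around 147 TPM in NrHet oocytes, 0 to 12.2 TPM around 4.48 TPM in mz_NrHet E2C embryos and 0 to 8.94 TPM around 2.66 TPM in mz_DHet L2C embryos. Its oocyte values lay above all others, and its E2C and L2C values overlapped.

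Genes of the same meiotic arrest left at opposite ends of this order. Mos, the kinase that holds the egg at metaphase II through MAP kinase, was 4.98 log2 units lower at E2C. Fbxo43, also known as Emi2, which inhibits the anaphase-promoting complex in the same arrest, had 435 to 786 TPM around 529 TPM in NrHet oocytes, 350.3 to 709.5 TPM around 455 TPM at E2C and 7.65 to 43.7 TPM around 13.5 TPM in mz_DHet L2C embryos. Its oocyte and E2C values overlapped and did not differ by the test (log2 difference -0.21, SE 0.173, adjusted p = 0.336, limma), and its E2C and L2C values did not overlap.

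The 3 members on the list of secreted and surface factors were all early. Plat, the tissue plasminogen activator, had 211 to 1364 TPM around 413 TPM in NrHet oocytes and 7.26 to 80.7 TPM around 29.1 TPM in mz_NrHet E2C embryos. Astl, the cortical granule protease ovastacin, had 148 to 420.5 TPM around 247 TPM and then 8.62 to 113 TPM around 41.2 TPM. Gdf9 stood at 335 to 947 TPM around 552 TPM at E2C and 29.6 to 318 TPM around 85.9 TPM in mz_DHet L2C embryos. For each of the 3 the oocyte and E2C groups did not overlap, and at L2C Gdf9 stayed the higher one, beside a median of 5.98 TPM for Plat and 13.6 TPM for Astl.

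RNA control proteins were found in every class. Zar1, an RNA-binding maternal-effect factor, had 1275 to 3058 TPM around 1972 TPM in NrHet oocytes, 48.4 to 546 TPM around 195 TPM at E2C and 0 to 20.4 TPM around 7.37 TPM in mz_DHet L2C embryos, with no overlap between these groups. Dcp1a was early in the Nrpp series by a narrow margin (2.02 lower) and middle in the NrHet series (1.70 lower), with 458 to 1315 TPM around 897 TPM at E2C. Pabpn1l, a poly(A)-binding protein of the oocyte and early embryo, was middle, with 89.5 to 229 TPM around 159 TPM in NrHet oocytes, 30.4 to 131 TPM around 59.7 TPM at E2C and a median of 0 TPM in mz_DHet L2C embryos. Rnf219, a ubiquitin ligase that associates with CCR4-NOT, was late, with 109 to 248 TPM around 139 TPM in NrHet oocytes and 33.2 to 125 TPM around 80.9 TPM at E2C.

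Of the 4 Obox homeobox genes, 3 were late. From NrHet oocytes to mz_NrHet E2C the log2 difference was 0.02 for Obox1, 0.36 for Obox5 and 0.06 for Obox7, none of which passed, whereas Obox2 fell by 1.57. Obox2 had 747 to 1469 TPM around 1025 TPM in NrHet oocytes and 132 to 784 TPM around 359 TPM at E2C, and it was listed at 0 in all 21 mz_DHet 8-cell embryos. Obox genes are near-identical copies, so reads may be split among them and single values are uncertain. The same holds for Oas1e, of the oligoadenylate synthetase family, and for the F-box genes Fbxw20 and Fbxw28, all of the late class, with differences to E2C of -0.19, -0.21 and 0.34, none of which passed.

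Cyp19a1, the aromatase known from granulosa cells, was a member of the late class. It had 68.5 to 149 TPM around 85.2 TPM in NrHet oocytes, 26.1 to 86.8 TPM around 53.3 TPM in mz_NrHet E2C embryos and a median of 0 TPM in mz_DHet L2C embryos. The other 9 cumulus and granulosa markers summed to 0.16 to 67.3 TPM around 0.9 TPM in NrHet oocytes, and to at most 13.5 TPM around 2.39 TPM at E2C.

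The classes differed in base composition, which the rule did not use. A complete coding transcript was found in the annotation (GENCODE M21, build GRCm38, the same assembly as mm10) for 92 members, and the longest one per gene was taken. The median GC content of the coding sequence was 54.5% in the early class (31 with a transcript), 54.1% in the middle class (16) and 47.1% in the late class (45). The 3' UTR followed the same order, with medians of 45.2%, 42.1% and 38.7%, and was shorter in the late class (818 bases) than in the early class (1333 bases). All 2552 genes at the oocyte minimum with such a transcript had medians of 50.5% for coding GC, 41.9% for 3' UTR GC and 1298.5 bases for 3' UTR length. Members had fewer exons, with a median of 6.5 against 11.0. These are descriptions without a test.

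Motifs known from maternal mRNA control were searched on the sense strand of the 3' UTR. The letters TTTTAT or TTTTAAT, the core of a cytoplasmic polyadenylation element, lay in the last 100 bases of 32 of the 92 (34.8%), against 29.5% of the genes at the oocyte minimum and 26.0% of the 966 of those genes that were less than 1 log2 unit lower at L2C. The share was 29.0% in the early, 43.8% in the middle and 35.6% in the late class. The AU-rich pentamer ATTTA was found in 72.8% of members and 79% of the genes at the oocyte minimum, TGTANATA, the letters bound by Pumilio proteins, in 30.4% and 32.1%, and the hexamer AATAAA in the last 40 bases, which signals 3' end processing and can overlap the first pair, in 78.3% and 70.4%. A match is only a match of letters.

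To show what such a 3' end looks like, the match nearest the 3' end is given with its neighbours for the 2 named members of each class that had the highest Nrpp oocyte level among those holding it. Capitals mark the matched letters, 5' to 3', from the annotated transcript, with the gene's span in GRCm38.
Gdf9 (early, chr11:53431023-53437904, plus strand): tcagagtgctgtggTTTTATgtgacggaag
Dcp1a (early, chr14:30479535-30527063, plus strand): tgcaaatatatttTTTTAATaaaatttcaa
Bpgm (middle, chr6:34476207-34505613, plus strand): tttacttgtatccaTTTTATaataaaacgg
Obox2 (middle, chr7:15388721-15398545, plus strand): tttaggtcttaattTTTTATtgttagagta
Tubb3 (late, chr8:123411424-123422015, plus strand): gcttattcgtctgtTTTTATggtttgtttt
Rraga (late, chr4:86575668-86577285, plus strand): gtggaatgttactaTTTTATcagcaagata
In Bpgm the match ends 24 bases from the annotated 3' end and is followed at once by AATAAA, whereas in Tubb3 it ends 88 bases away.

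After L2C most members kept falling, and a few came back. In mz_DHet 8-cell against mz_DHet L2C embryos 73 of the members were lower, against 36% of all genes, and 5 were higher, against 16.6%. The 5 were Isl2, Agk, Trim32, Sc5d and Copb1. Isl2, a LIM homeobox gene, had 0 to 10.8 TPM around 5.22 TPM at L2C and 0.834 to 43.9 TPM around 21.1 TPM at the 8-cell stage, with overlap (log2 difference 2.07, SE 0.390, adjusted p = 1.15e-06, limma). Agk, a mitochondrial lipid kinase, had 1.72 to 17.2 TPM around 5.33 TPM and then 6.59 to 36.5 TPM around 20.3 TPM, with overlap (log2 difference 1.73, SE 0.296, adjusted p = 8.09e-08, limma). The 6 named members with the highest mz_DHet mean at the 8-cell stage were Copb1, Agk, Rraga, Dcp1a, Copg2 and Isl2, between 4.17 and 4.64 on the log2(TPM + 1) scale, and 70 members were under 1 TPM there.

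At E2C, embryos without maternal and zygotic Nr5a2 had higher levels of some early and middle members than controls. Some late members were lower, at a share of the members near that of all genes. In mz_NrKO against mz_NrHet embryos, fitted with collection date over 13040 genes, 8 of the members were higher (0.667% of all genes were) and 6 lower (4.5% of all genes, and 5.17% in either direction). All 8 higher members were of the early (6) or middle (2) class, and all 6 lower members of the late class. The median log2 difference was 0.238 in the early class, with 30 of 36 above 0, and 0.190 in the middle class, with 14 of 17 above 0. It was -0.0926 in the late class, with 17 of 54 above 0, beside -0.0885 over all genes. The late class was at 0 after median-of-ratios scaling, with 27 of 54 above 0, and at 0.03 without replicate 1, so its direction as a class depends on these, while the early class was above 0 in each setting tried.

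The higher members were Bpgm, Ppp1r3d, Dclre1a, Zar1, Plat, Lysmd4, Afap1l2 and Dcp1a. Bpgm had 696 to 2019 TPM around 1244 TPM in the 29 mz_NrHet embryos and 325 to 3010 TPM around 2054 TPM in the 22 mz_NrKO embryos. The groups overlapped, with 21 of the 22 above the control median (log2 difference 0.68, SE 0.129, adjusted p = 0.000448, limma). The other control group, mz_Nrpp, stood higher, with a median of 1687 TPM, and against it the difference of Bpgm in mz_NrKO was 0.22 and did not pass (adjusted p = 0.502, limma). Zar1 had 48.4 to 546 TPM around 195 TPM in mz_NrHet and 69.7 to 622 TPM around 315 TPM in mz_NrKO, with 17 of 22 above the control median (log2 difference 0.55, SE 0.167, adjusted p = 0.0310, limma). Plat had 7.26 to 80.7 TPM around 29.1 TPM and 26.9 to 97.2 TPM around 47.1 TPM, with 20 of 22 above the control median (log2 difference 0.55, SE 0.166, adjusted p = 0.0329, limma). All 3 overlapped between the groups.

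Ppp1r3d, which targets a phosphatase to glycogen, and Dclre1a, a nuclease of DNA crosslink repair, had log2 differences of 0.67 and 0.65 (adjusted p = 0.00366 and 0.00313, limma). Dcp1a went from a median of 897 TPM to 1294 TPM, with 20 of 22 mz_NrKO embryos above the control median (log2 difference 0.33, SE 0.0984, adjusted p = 0.0320, limma). Lysmd4 and Afap1l2 differed by 0.45 and 0.39, with 21 of 22 embryos above the control median for each.

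The lower members were Gnpda2, Obox5, Obox7, Cep55, the predicted gene Gm47182 and the pseudogene Zfp813-ps. Gnpda2, a glucosamine-6-phosphate deaminase, had 47.1 to 194 TPM around 89.6 TPM in mz_NrHet and 6.52 to 100.4 TPM around 68.5 TPM in mz_NrKO, with 21 of 22 under the control median (log2 difference -0.48, SE 0.127, adjusted p = 0.0110, limma). Obox5 had 315 to 929 TPM around 495 TPM and 55.3 to 562 TPM around 378 TPM, with 21 of 22 under the control median (log2 difference -0.39, SE 0.0965, adjusted p = 0.00610, limma). Obox7 and Cep55, a protein of the cytokinetic bridge, differed by -0.37 and -0.29. The groups overlapped for each of these.

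**Figure D2:**
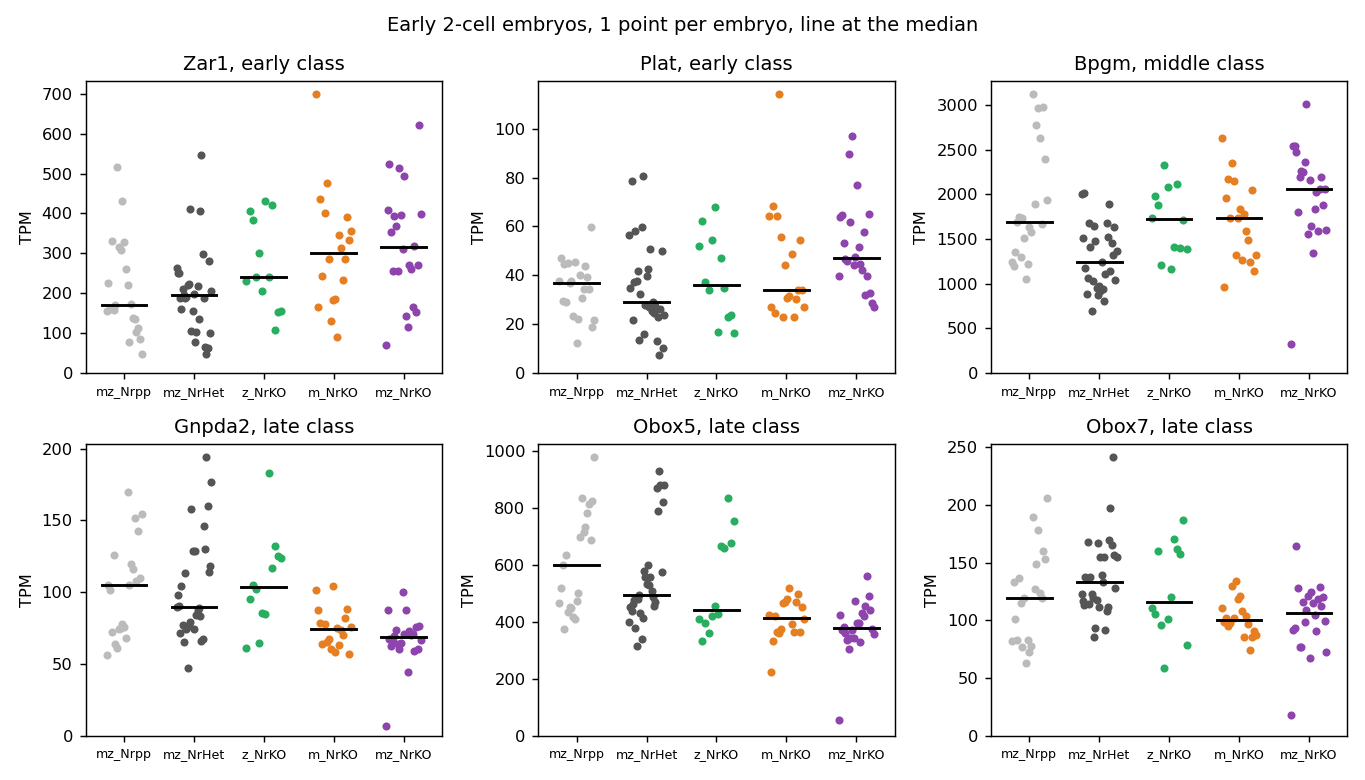
TPM of 3 members that were higher in mz_NrKO (Zar1, Plat, Bpgm) and 3 that were lower (Gnpda2, Obox5, Obox7) in every E2C embryo, by group, with a line at the median. The groups overlap in every panel, the medians of mz_NrKO and mz_NrHet stand apart in the directions given above, and the single low mz_NrKO embryo in the panels of Bpgm, Gnpda2, Obox5 and Obox7 is the library that stood apart.

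Collection date went with these levels too. In the 7 mz_NrHet embryos of 11 January Obox5 had a median of 869.8 TPM, against 434 TPM in the 12 of 1 August, and no mz_NrKO or m_NrKO embryo was collected on that day. For Bpgm the 9 mz_Nrpp embryos of that day had a median of 2626 TPM, against 1324 TPM in the 6 of 1 August, and above the 2254 TPM of the mz_NrKO embryos of 1 August, whereas the mz_NrHet embryos of 11 January had 1362 TPM. Without the embryos of that day, a choice made after seeing the data, 5 members were higher and 4 lower in mz_NrKO. Of all genes 0.578% were higher and 3.07% lower there. Again all 5 were in the early or middle class and all 4 in the late class. Within single dates the early class median was 0.16 on 1 August, 0.35 on 7 November and 0.22 on 14 November, and the late class median -0.15, -0.13 and -0.01. Within a date, limma called 1 member higher on 1 August, where 0.176% of all genes were higher and 1.12% lower. On 7 November it called 11 higher and 3 lower, where 1.63% and 1.54% of all genes were. On 14 November, when 2 mz_NrKO embryos stood against 3, it called none (0% of all genes). On 7 November 9 of the 11 higher members were of the early or middle class and 2 of the late class, and 1 middle and 2 late members were lower. With the library number as a block 4 were higher, all early or middle, and 6 lower, of which 1 was middle. In that fit 0.498% of all genes were higher and 3.01% lower.

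Without mz_NrKO replicate 1, 19 members were higher and 5 lower, with 16 of the 19 in the early or middle class and all 5 lower ones in the late class. The share of all genes called higher moved with it, from 0.667% to 2.82%, and that called lower from 4.5% to 3.85%. Against mz_Nrpp as the control, which also set the classes, 1 was higher and 4 lower, where 0.299% and 1.49% of all genes were. The list of 2-cell burst genes, which the embryo transcribes in a pulse at this stage, moved in the same comparison: 23 of 25 tested were lower and none higher, with a median of -2.12. Its 7 markers with values summed to 7.57 to 1056 TPM around 205 TPM in mz_NrKO and 39.4 to 6036 TPM around 1402 TPM in mz_NrHet, and its part in the members' differences was not tested.

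In the maternal knockout alone few members passed. In m_NrKO against the same mz_NrHet embryos 1 member was higher (0.092% of all genes) and 1 lower (0.153%, with 0.245% in either direction), Lysmd4 at 0.54 (SE 0.118, adjusted p = 0.0139, limma) and Gm47182 at -0.53 (adjusted p = 0.0338, limma), and 27 had an unadjusted p under 0.05. The early class median was 0.255, the middle class median 0.192 and the late class median -0.0926, beside -0.0239 over all genes. Bpgm differed by 0.52, Plat by 0.41, Dcp1a by 0.33, Zar1 by 0.25, Obox5 by -0.21 and Gnpda2 by -0.20, none of which passed. The mz_NrKO and m_NrKO comparisons share their control embryos, so these are given only as values side by side. Between mz_NrKO and m_NrKO directly limma called no member (0% of all genes), with 3 under an unadjusted p of 0.05, beside 918 of the 13040 genes. Without mz_NrKO replicate 1, which enters through the shared spread, 9 members were higher and 6 lower in m_NrKO, where the shares of all genes rose as well, to 1.37% higher and 1.77% lower. Without the embryos of 11 January limma called no member in m_NrKO (0.124% of all genes). The 2-cell burst list had a median of -1.15 in m_NrKO with 0 of 25 above 0, none of which limma called and 17 of which had an unadjusted p under 0.05, and its part in the members' differences was not tested.

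In the zygotic knockout limma called no member against mz_NrHet (0% of all genes), and 6 had an unadjusted p under 0.05, beside 701 of the 13040 genes. The early class median was 0.16 there. The 2-cell burst list had a median of -0.85 with 2 of 25 above 0, none called by limma and 7 under an unadjusted p of 0.05. Between the control groups mz_NrHet and mz_Nrpp limma called none either (0.268% of all genes were called, 0.0844% higher and 0.184% lower). There 5 were under an unadjusted p of 0.05, beside 1069 of the 13040 genes.

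**Figure D3:**
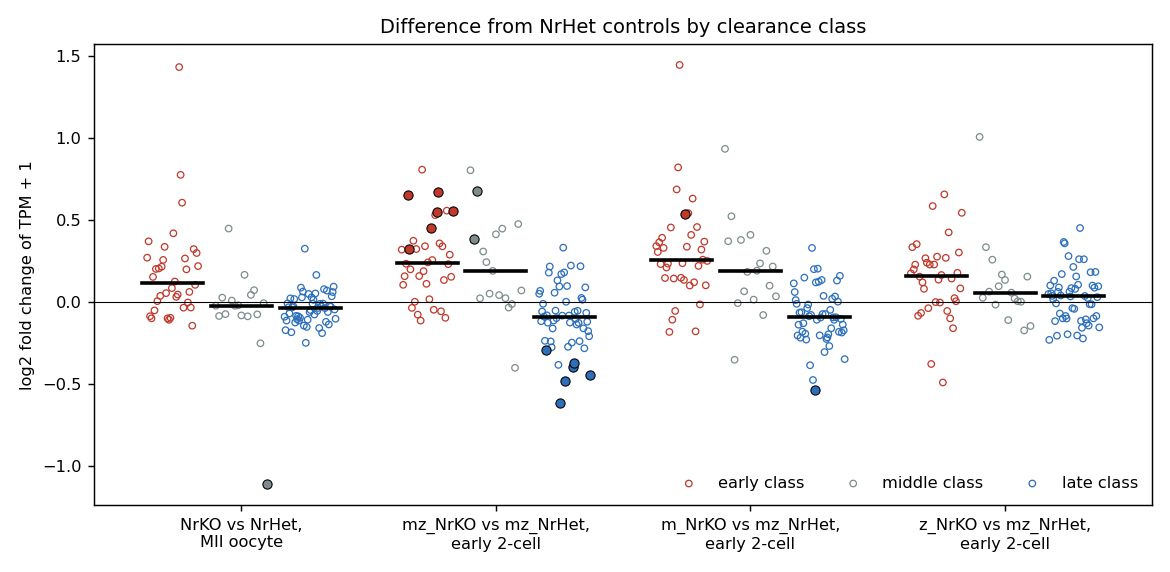
Log2 differences of the members from NrHet controls in 4 comparisons, as points by clearance class with a bar at the class median and filled points for members with an adjusted p under 0.05. In mz_NrKO E2C embryos the filled points above 0 are of the early and middle classes and those under 0 of the late class, and the oocyte comparison has 1 filled point.

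In knockout oocytes few calls were made before fertilization. In NrKO against NrHet oocytes 1 of the members was lower (0.112% of the 8952 genes tested) and 0 higher (0.101%, with 0.212% in either direction), and 24 had an unadjusted p under 0.05. The 1 was Zfp69, a zinc finger gene, with 17.5 to 101.8 TPM around 55.5 TPM in NrHet and 10.2 to 28.7 TPM around 21.2 TPM in NrKO oocytes and all 12 NrKO oocytes under the control median (log2 difference -1.11, SE 0.237, adjusted p = 0.0287, limma). The difference was -1.21 without date in the fit (adjusted p = 0.0536, limma) and -1.11 without the filter (0.105), and within the single collection dates -1.57 and -0.40 (0.0749 and 0.640), none of which passed. Against pp oocytes the authors' deposited table lists a log2 fold change of -2.57 for Zfp69, at a false discovery rate of 6.4e-68. The early class had a median of 0.115 with 26 of 36 above 0. The middle class had -0.02 with 6 of 17 above 0, and the late class -0.04 with 16 of 54. The class medians thus stood in the same order as in mz_NrKO at E2C. Plat had 211 to 1364 TPM around 413 TPM in NrHet and 336 to 1548 TPM around 1016 TPM in NrKO oocytes, a difference that did not pass (log2 difference 0.61, SE 0.147, adjusted p = 0.0577, limma). Of the other members that were higher at E2C, Zar1 had an oocyte difference of 0.22, Dclre1a 0.15, Bpgm 0.03, Lysmd4 0.03, Ppp1r3d -0.03, Dcp1a -0.05 and Afap1l2 -0.08, none of which passed.

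Other genes at the oocyte minimum differed in the same order as the classes. Among them, 197 that were at least 2 log2 units lower at E2C in Nrpp had a median difference of 0.195 in mz_NrKO, with 80.7% above 0. The 2007 others that were less than 1 lower had a median of -0.115, with 21.3% above 0. Coding GC content moved with the classes, so genes were also divided at 50% GC. In early members the median was 0.289 at or over 50% (25 tested) and 0.179 under it (6 tested), and in late members -0.092 (16) and -0.112 (29).

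At L2C no member passed the test in mz_NrKO, mz_EKO or mz_DKO. The z_NrKO embryos were not tested there, since their control, z_NrHet, had set the members. Of the members, 100 had at least 5 TPM in enough libraries to be tested. The median log2 difference from mz_DHet was 0.349 in mz_NrKO, 0.306 in mz_EKO and -0.0703 in mz_DKO, beside 0.0167, -0.0118 and 0.0385 over all genes. Of the 100, 75, 70 and 47 were above 0. The median SE of a member was 0.740, 0.761 and 0.681, against 0.132 in mz_NrKO at E2C. Differences of the size called at E2C could therefore hardly pass here, and the lack of calls does not show equal levels. Limma called 0 members (0.127%, 0% and 0.141% of all genes were called), with 3, 3 and 5 members under an unadjusted p of 0.05. Of all 14147 genes tested, 1143, 947 and 1181 were under it. Limma on the UMI table called none either (0%, 0% and 0.017% of all genes). All 10 mz_NrKO embryos were collected on 8 March 2022, as were 2 of the 7 mz_DHet embryos, and in the embryos of that day alone, a choice made after seeing the data, none was called.

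The mz_NrKO and mz_EKO embryos spread widely at L2C. The mean log2(TPM + 1) over the members ranged from 2.11 to 4.63 around a median of 2.92 in mz_NrKO and from 1.69 to 3.77 around 2.89 in mz_EKO. In mz_DHet it ranged from 1.86 to 2.98 around 2.86 and in mz_DKO from 2.23 to 3.01 around 2.65. The SD was 0.759 in mz_NrKO, 0.675 in mz_EKO, 0.390 in mz_DHet and 0.295 in mz_DKO, and this difference in spread was not tested. The mz_EKO spread mixes dates. Its 2 lowest embryos, at 1.69 and 2.04, were its only ones of 17 June 2022. Its 8 embryos of 8 March ran from 2.45 to 3.77. In z_NrHet, which set the members, and z_NrKO, all of 8 March, the SD was 0.254 and 0.340. The mz_DHet spread rests on replicate 5, the lowest of its group, and without it, a choice made after seeing the data, the SD was 0.123 over 6 embryos. In mz_NrKO replicate 6, the highest, the members held 0.714% of TPM, with late members at a mean of 4.95 and early members at 4.21. Its 2-cell burst markers summed to 2369 TPM and its oocyte markers, of which Gdf9, Mos and Zar1 are members, to 939.8 TPM, each the highest of its group. In mz_DHet these sums reached at most 479 TPM and 426 TPM. The highest mz_EKO embryos, replicates 9 and 10, had burst sums of 2117 and 1299 TPM. Blood markers were at 0 TPM in mz_NrKO replicate 6 and mz_EKO replicate 10 and at 1.67 TPM in mz_EKO replicate 9, whereas mz_NrKO replicate 9 held 272 TPM of them with a member mean of 2.81. The part of the burst markers in this spread was not tested. Bpgm had 41.1 to 813 TPM around 158 TPM in mz_NrKO, 56.4 to 317 TPM around 200.2 TPM in mz_EKO and 55.6 to 225 TPM around 161 TPM in mz_DHet, so its medians lay near each other and its highest mz_NrKO embryo far above the rest. Without replicate 6 limma still called no member in mz_NrKO (0.107% of all genes).

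**Figure D4:**
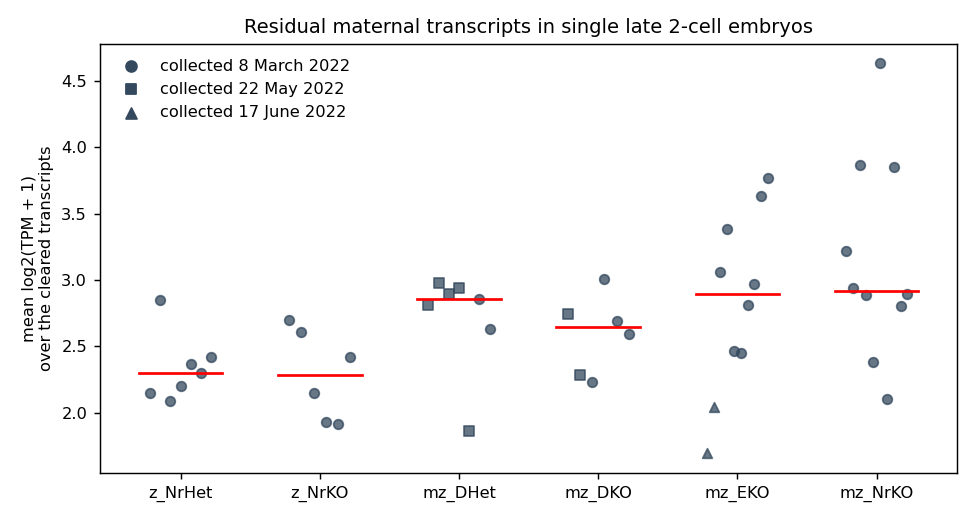
Mean log2(TPM + 1) over the members in each L2C embryo, by group, with the collection date as the symbol and a line at the group median. The highest mz_NrKO and mz_EKO embryos reach 4.63 and 3.77, above the highest mz_DHet embryo at 2.98, while the group medians are 2.92, 2.89 and 2.86.

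At the 4-cell stage 73 members could be tested, and limma called 0 in mz_NrKO (0.675% of all genes called, 0.261% higher and 0.414% lower), mz_EKO (0%) and mz_DKO (2.58%, 0.897% higher and 1.68% lower). Under an unadjusted p of 0.05 there were 4, 6 and 4, beside 1477, 803 and 1760 of all 13044 genes tested. The median SE of a member was 0.662, 0.731 and 0.530, so small differences could hardly pass here. The mean log2(TPM + 1) over the members was 2.22 in mz_NrKO (SD 0.277, n = 5), 1.94 in mz_EKO (SD 0.136, n = 4), 2.05 in mz_DKO (SD 0.227, n = 10) and 2.11 in mz_DHet (SD 0.374, n = 6), and all groups overlapped.

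At the 8-cell stage 27 of the members still had enough signal to be tested, and several of these differed in embryos without Nr5a2. In mz_NrKO 4 were higher and 2 lower, where 14.1% and 14.2% of the 10876 genes tested were. In mz_DKO 6 were higher and 4 lower, where 18.9% and 14.8% were (28.3% and 33.7% in either direction), so these shares stand near the background. In mz_EKO limma called none (0.00919% of all genes), and 0 had an unadjusted p under 0.05, beside 257 of the 10876 genes. A member reached this test only if some group still held it, so these counts are not counts of all members. The 2-cell burst list moved in the same comparisons, with 11 of 14 tested higher and 0 lower in both mz_NrKO (median 2.19) and mz_DKO (median 2.84), and none called by limma in mz_EKO, with 0 under an unadjusted p of 0.05. Its part in the members' differences was not tested.

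Bpgm had the largest difference among the members called. It had 0 to 31.1 TPM around 5.55 TPM in the 21 mz_DHet embryos and 1.85 to 12.1 TPM around 5.20 TPM in the 10 mz_EKO embryos. It had 4.45 to 75.4 TPM around 45.1 TPM in the 10 mz_NrKO embryos and 24.4 to 72.7 TPM around 55.2 TPM in the 10 mz_DKO embryos. Against mz_DHet, 9 of 10 mz_NrKO and all 10 mz_DKO embryos lay above the control median, and the ranges overlapped. The log2 difference was 2.68 in mz_NrKO (SE 0.348, adjusted p = 7.23e-08, limma) and 2.91 in mz_DKO (SE 0.353, adjusted p = 5.28e-09, limma). In the UMI table Bpgm had 0.984 to 20.5 TPM around 3.24 TPM in 16 mz_DHet embryos, 17.3 to 41.4 TPM around 39.3 TPM in 5 mz_NrKO embryos and 15.4 to 51.8 TPM around 27.7 TPM in 9 mz_DKO embryos, where it passed as well. At L2C the Bpgm differences in mz_NrKO and mz_DKO were 0.25 and -0.32, and at the 4-cell stage 0.12 and 0.17, none of which passed.

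Gdpd1, a glycerophosphodiesterase, had medians of 7.99 TPM in mz_DHet, 6.35 TPM in mz_EKO, 27.9 TPM in mz_NrKO and 34.3 TPM in mz_DKO. Its log2 differences were 1.47 in mz_NrKO and 1.69 in mz_DKO (adjusted p = 0.000195 and 1.62e-05, limma). Spg20, which codes for spartin, was 1.41 and 1.38 higher, and Prr7 1.26 and 1.33. Furin, a proprotein convertase, and Cep55 were higher in mz_DKO, by 1.33 and 1.15, with differences of 0.45 and 0.55 in mz_NrKO that did not pass. The mz_NrKO and mz_DKO effects were not tested against each other.

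Isl2 was lower in both. It had 0.834 to 43.9 TPM around 21.1 TPM in mz_DHet and 14.2 to 39.0 TPM around 26.7 TPM in mz_EKO, against 1.17 to 17.8 TPM around 10.3 TPM in mz_NrKO and 0 to 16 TPM around 6.37 TPM in mz_DKO. All 10 mz_NrKO and all 10 mz_DKO embryos lay under the control median, within the control range or under it (log2 differences -0.99 and -1.96, adjusted p = 0.0486 and 7.48e-05, limma). Copg2, a coatomer subunit, differed by -0.86 and -0.86, and in mz_DKO Gk, glycerol kinase, and Zfp60 by -1.52 and -0.73. In the UMI table Isl2 passed in both, and Copg2 and Zfp60 did not (adjusted p = 0.607 and 0.234 for Copg2 and 0.415 for Zfp60, limma). With the library number as a block, 3 members passed in mz_NrKO (Bpgm, Spg20 and Isl2) and 8 in mz_DKO, where 15.8% and 27.4% of all genes did.

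**Figure D5:**
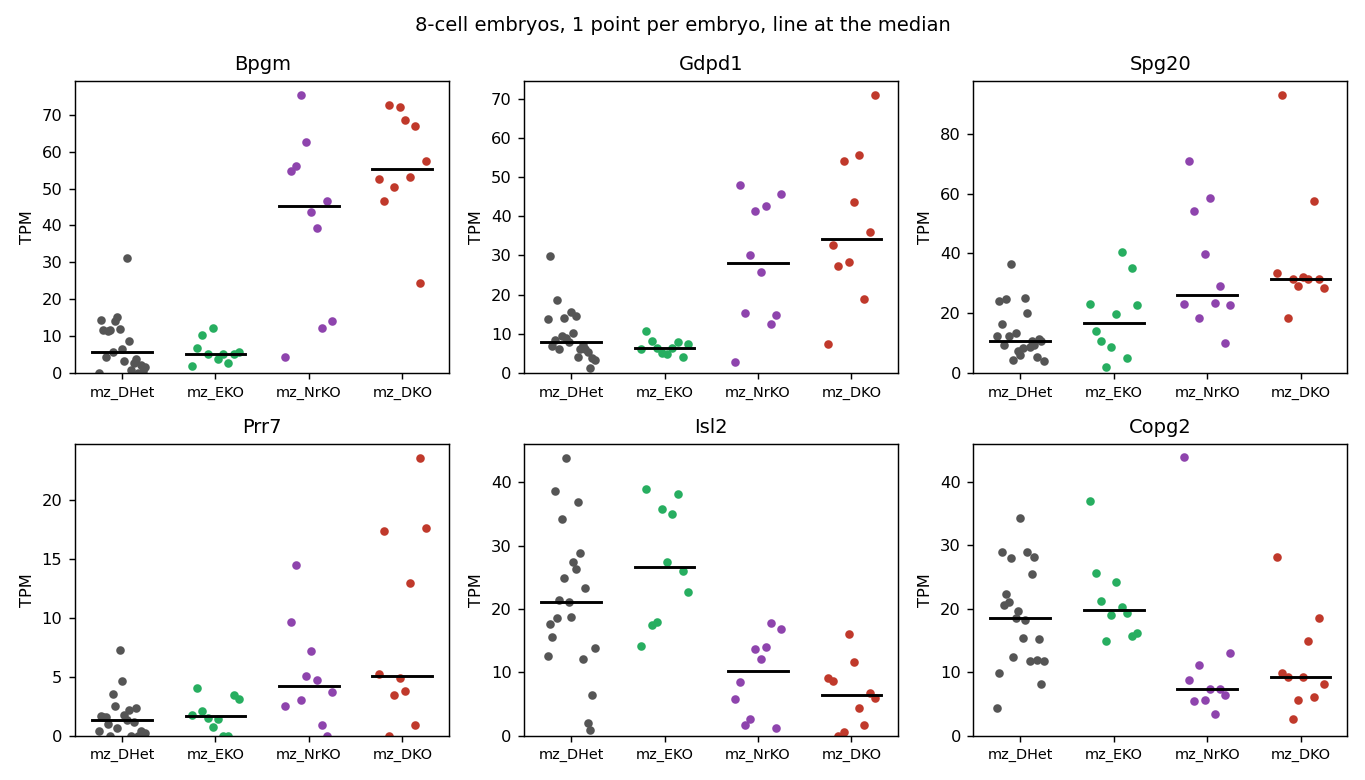
TPM of 6 members in every 8-cell embryo, by group, with a line at the median. Bpgm and Gdpd1 are higher in most mz_NrKO and mz_DKO embryos than in mz_DHet and mz_EKO embryos, Spg20 and Prr7 have higher medians with overlap, and Isl2 and Copg2 have lower medians.

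The authors' deposited table gives comparisons of its own, at E2C and in oocytes against pp controls. At a fold of 1.5 and a false discovery rate under 0.1, the authors' deposited table holds 12 members as higher and 2 as lower in mz_NrKO at E2C, 1 and 1 in m_NrKO, 8 and 3 in mz_NrKO at the 8-cell stage, and 7 and 10 in mz_DKO at the 8-cell stage. In NrKO oocytes the authors' deposited table holds 0 as higher and 1 as lower. The limma fit against mz_Nrpp, at its own threshold, called 1 member higher and 4 lower in mz_NrKO at E2C. The counts of the 2 methods thus differ there, and why was not tested. The authors' shares over all genes were not taken, so these counts have no background and cannot be read as a result about the members. For Bpgm the authors' deposited table lists log2 fold changes of 0.58 in mz_NrKO at E2C, 2.91 in mz_NrKO at the 8-cell stage and 2.64 in mz_DKO at the 8-cell stage. The authors' false discovery rate for Bpgm at E2C is 7.7e-05, whereas limma against mz_Nrpp did not call it. For Zar1 and Plat at E2C in mz_NrKO the authors' deposited table lists 0.84 and 0.78.

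The wider list of RNA control and decay genes, which holds 4 of the members, had calls in both directions. From NrHet oocytes to mz_NrHet E2C 25 of its 64 tested genes were higher and 21 lower, where 38.3% and 12.6% of all genes were, so its share of higher genes stood near that of all genes. In mz_NrKO E2C embryos 3 of 60 were higher and 5 lower, where 0.667% and 4.5% of all genes were, with a median of -0.106 beside -0.0885 over all genes. None of these 60 was called by limma in m_NrKO (0.245% of all genes), with 10 under an unadjusted p of 0.05. None of the 54 tested was called in NrKO oocytes (0.212% of all genes), with 8 under it. Of all genes, 1738 of 13040 in m_NrKO and 1062 of 8952 in oocytes were under it. At the 8-cell stage 5 of 49 were higher and 6 lower in mz_NrKO, where 14.1% and 14.2% of all genes were. In mz_DKO 15 were higher and 5 lower, where 18.9% and 14.8% of all genes were. The oocyte transcription factor list, with 4 Obox members, had 1 of 28 higher and 4 lower in mz_NrKO at E2C.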

How the data were processed

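Per the labels' protocols, single oocytes and embryos were lysed and their poly(A) RNA was made into cDNA, and per the submitters' processing notes reads were handled with cutadapt, STAR, RSEM and DESeq2 on mm10, with no versions given there. The authors deposited gene-level TPM for full-length reads and for UMI reads, and a table of their comparisons with log2 fold changes and false discovery rates (adjusted p-values, or q-values), whose values are printed only as the authors'. Of the series' samples, 263 full-length and 110 UMI libraries were used, the others were not analysed here, and 65 unnamed table entries were dropped.

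Values were taken as log2(TPM + 1). Within a stage, genes with at least 5 TPM in as many libraries as the smallest group has were fitted by limma 3.58.1 (R 4.3.3, trended variance) with group and collection date, with Benjamini-Hochberg adjustment over all genes and a threshold of 0.05. Changes between stages came from 1 fit over all 263 libraries without date. Oocytes and E2C embryos shared no collection date with each other or with later stages. Code was tested on simulated data. The members, the classes and the gene lists were chosen with earlier results of these data known, so a test on them is not independent of those. Named members were the 8 with the highest oocyte level, those at the rule's edge, the 6 highest of each class, up to 10 called in each direction per comparison at a minimum level, members on the role lists, and the 6 highest at the 8-cell stage, and any other name is given where a count of few genes needed it. Alternatives were the pseudocount, the filter, median-of-ratios scaling, the date term, a replicate block, single dates, another control, the UMI table and left-out libraries. Tables were made with Python 3.11.15 and pandas 2.3.3, figures with matplotlib 3.10.9.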

Additional observations from a re-analysis of the deposited data

Results flagged for a closer look

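Some libraries lay far from the others of their group, by a gap beyond Dixon's 95% limit. Chance gives such a gap in about 1 in 20 groups, and 4 were found in 14 group means and 30 pairs of gene and group checked. The mean log2(TPM + 1) over the members was 1.865 in L2C mz_DHet replicate 5, under the other 6 embryos of its group. At the 8-cell stage Bpgm was at 24.392 TPM in mz_DKO replicate 9, the lowest of its 10. In mz_NrKO replicate 1, Copg2 was at 43.906 TPM, the highest of its 10, and Gdpd1 at 2.834 TPM, the lowest of its 10.

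For some members the knockout effect at the 8-cell stage differed from that at L2C. The difference was tested in 1 limma fit over both stages without date, added after seeing the data. At L2C all 10 mz_NrKO embryos were of 8 March 2022 and 5 of the 7 mz_DHet embryos of 22 May. Leaving date out at L2C raised the share of all genes called in mz_NrKO from 0.127% to 10.8%. Knockout effect and date can therefore not be fully told apart in this fit. In mz_NrKO the difference was 1.954 log2 units for Bpgm (adjusted p = 0.0313, limma) and -1.744 for Acvr1b (adjusted p = 0.0148, limma). In mz_DKO it was 3.408 for Bpgm (adjusted p = 0.000461, limma), 2.334 for Zfp69 (adjusted p = 0.0352, limma), 1.627 for Cep55 (adjusted p = 0.0476, limma) and 1.825 for the predicted gene Gm5065 (adjusted p = 0.0405, limma). Of all 16020 genes in the fit 11.26% were called in mz_NrKO and 6.877% in mz_DKO. The share of the members called was under that of all genes in both.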

How the results depend on the processing

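The number of members called in mz_NrKO at E2C, 14, was 7 without a filter, 28 after median-of-ratios scaling, 24 without mz_NrKO replicate 1, 5 against mz_Nrpp, 9 without the embryos of 11 January, 1 within 1 August and 0 within 14 November. Of all genes 5.17% were called in the main fit. In these settings, in the same order, 1.11%, 7.14%, 6.66%, 1.79%, 3.64%, 1.3% and 0% were. Afap1l2 had the opposite sign within 14 November (-0.25, adjusted p = 0.969, limma). In m_NrKO, with 2 called, it was 1 without a filter, 14 after median-of-ratios scaling, 4 without date, 15 without mz_NrKO replicate 1, 4 within 1 August, 11 within 7 November, 0 within 14 November and 0 without 11 January. For m_NrKO 0.245% of all genes were called in the main fit. In its settings, in the same order, 0.0433%, 3.06%, 1.35%, 3.14%, 1.77%, 2.4%, 0% and 0.124% were. Between mz_NrHet and mz_Nrpp, with 0 members called, the number was 1 after median-of-ratios scaling and 1 without mz_NrKO replicate 1. It was 3 within 1 August, 1 within 11 January and 1 without that day. Between these controls 0.268% of all genes were called in the main fit. In the 5 settings, in order, 0.797%, 0.775%, 0.629%, 0.161% and 0.117% were. In oocytes, with 1 called (0.212% of all genes), it was 0 without a filter (0.0119%) and 0 without date (0.0447%). At L2C mz_NrKO had 1 called without date, where 10.8% of all genes were. The middle class held 31 members after median-of-ratios scaling instead of 17. Leaving out each 4-cell mz_NrKO or mz_EKO replicate gave 0 to 0 called. With the replicate number as a block, 10 members were called in mz_NrKO at E2C, 0 in m_NrKO, 0 in oocytes and 3 instead of 6 in mz_NrKO at the 8-cell stage. Of all genes, in the same order, 3.51%, 0.092%, 0.179% and 15.8% were called with the block. At the 8-cell stage the main fit had called 28.3% of all genes in mz_NrKO. The numbers do not pair the embryos: over 22 same-numbered E2C pairs the correlations ran from -0.0517 to 0.238, with 6 over 0.1. The causes of these shifts were not tested. TPM keeps no depth, so what depth limits cannot be given.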
